A study of Mus musculus with 28 samples.

Results

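Mitochondria are built from genes of the nucleus and of mitochondrial DNA (mtDNA), and a small set of regulators ties both genomes together. The coactivators PGC-1α (Ppargc1a) and PGC-1β (Ppargc1b) bind nuclear receptors such as PPARα (Ppara) and PPARδ (Ppard) and the factors NRF-1 (Nrf1) and GABP (subunit Gabpa). These in turn act on genes of fatty acid oxidation, of the respiratory chain and of the mtDNA machinery: the packaging and transcription factor Tfam, the rRNA methyltransferase Tfb1m, the transcription factor Tfb2m and the catalytic subunit of the mtDNA polymerase, Polg. In skeletal muscle PGC-1α is known for its rise with endurance exercise and for its part in oxidative fibers. The members described here were these 10 named genes, and all 10 were found in both tables of read counts, among 55359 Ensembl identifiers that both tables share.

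The counts came from the tibialis anterior (TA) muscle of 28 mice in 7 groups of 4, taken at 8 weeks of age from the C57BL/6N strain, in a study of centronuclear myopathy models and their treatment. In the Dnm2 cohort, WT mice and Dnm2 S619L/+ mice, which carry 1 mutated copy of dynamin 2, received placebo or tamoxifen, a ligand of estrogen receptors, with the diet. In the Bin1 cohort, WT mice received placebo, and Bin1 mck-/- mice, which lack amphiphysin 2 in muscle through a deletion driven by the muscle creatine kinase (MCK) promoter, received placebo or tamoxifen. There was no tamoxifen-treated WT group in the Bin1 cohort, and sex is not among the labels. The cohorts differed in RNA input and fragmentation time, so mouse model and library protocol cannot be told apart, and levels were compared within each cohort. Reads on genes per mouse ranged from 15586333 to 109710886 in the Dnm2 cohort and from 24671835 to 35136327 in the Bin1 cohort. Levels are given in CPM, read counts scaled to a common library size by edgeR's TMM method within the cohort.

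The label TA muscle was checked first. Creatine kinase M (Ckm) reached 10627 to 26910 CPM in every mouse, and 12 fast fiber genes together reached 115545 to 259097 CPM. Bin1 itself lay between 521.2 and 555.8 CPM in the WT mice of its cohort, between 51.6 and 62.1 in Bin1 mck-/- placebo mice and between 36.1 and 49.5 in Bin1 mck-/- tamoxifen mice. The S619L mutation cannot be seen in counts per gene. Markers of bone were high in some libraries, in both tamoxifen groups of the Dnm2 cohort above all, and whether these transcripts came from bone left on the muscle or from the muscle itself was not tested. The summed level of 14 bone and cartilage genes was 159.5 to 490.7 CPM in WT placebo mice and 4517 to 9861 CPM in WT tamoxifen mice. It was 436.1 to 591.6 CPM in Dnm2 S619L/+ placebo mice, and in treated Dnm2 S619L/+ mice it was 3419, 6104 and 7871 CPM with 548.4 CPM in mouse 4. For the Bin1 cohort it was 290.1 to 430.3 CPM in WT mice, 430.7 to 1497 in Bin1 mck-/- placebo mice and 95.8 to 498.2 in treated mice, except for 3055 CPM in treated mouse 2. No bone marker was at 0 in all mice of either tamoxifen group of the Dnm2 cohort, nor in all WT placebo mice of that cohort. Bglap2 and Mepe were at 0 in all Dnm2 S619L/+ placebo mice. In such bulk samples, fewer cells of a type and less RNA per cell cannot be told apart.

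**Figure D1:**
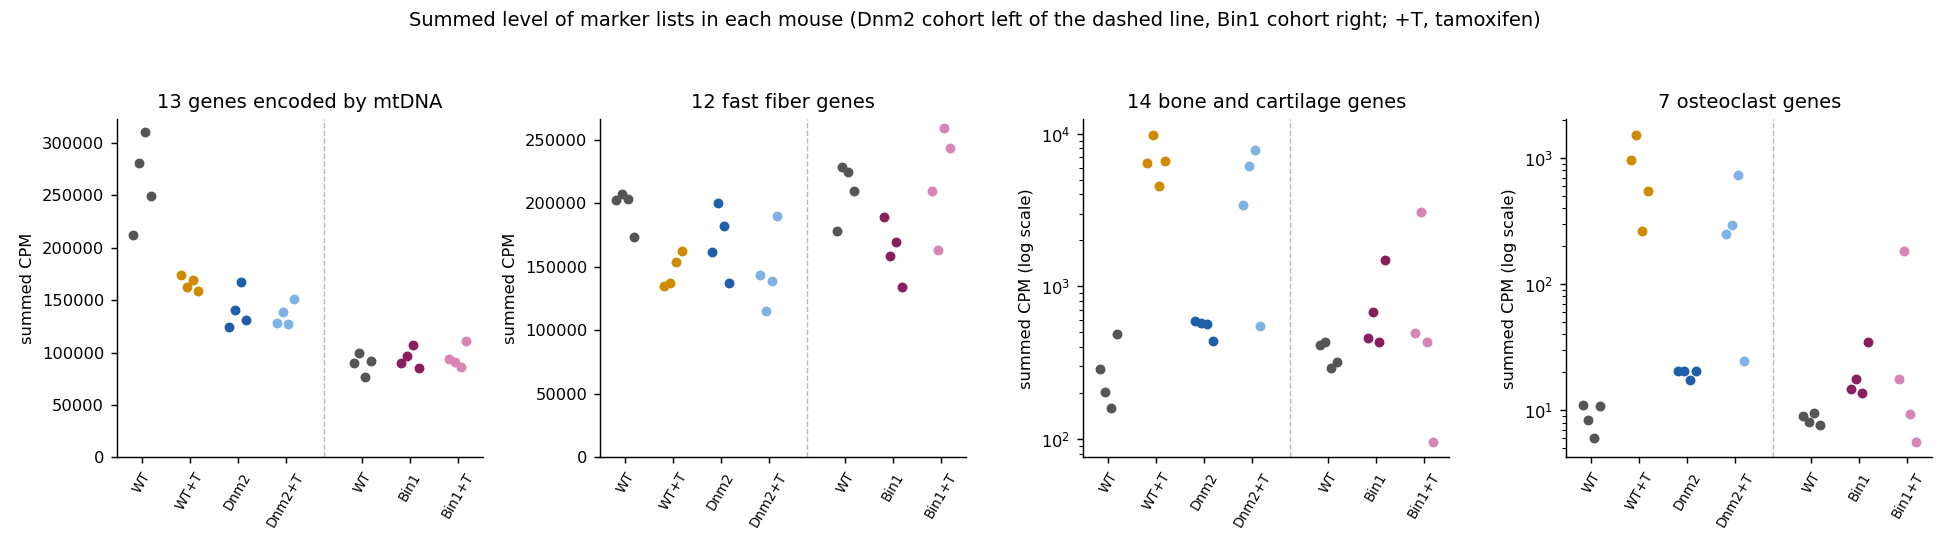
Summed CPM of 4 gene lists in each mouse, by group (points, single mice; left of the dashed line the Dnm2 cohort, right the Bin1 cohort; WT+T, Dnm2+T and Bin1+T are the tamoxifen groups). The bone and osteoclast panels have log axes. Transcripts encoded by mtDNA were at least 212634 CPM in every WT placebo mouse of the Dnm2 cohort and at most 173630 in every other mouse of that cohort. Some of the 13 mtDNA genes had 0 reads in whole groups, so their sum rests on the others.

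The regions just before the start sites of the 3 members that passed a test in the comparisons below are shown for orientation, with the letters of a searched motif in capitals. Each run is the 250 bases before the start of the gene, 5′ to 3′ on the gene's own strand, from RefSeq promoters of build GRCm38.p6 (Ppargc1a chr5:51567726-51567975, Tfam chr10:71238045-71238294 and Tfb1m chr17:3557756-3558005, all on the minus strand). All 3 windows lie upstream of the annotated start and hence outside the transcript.
Ppargc1a: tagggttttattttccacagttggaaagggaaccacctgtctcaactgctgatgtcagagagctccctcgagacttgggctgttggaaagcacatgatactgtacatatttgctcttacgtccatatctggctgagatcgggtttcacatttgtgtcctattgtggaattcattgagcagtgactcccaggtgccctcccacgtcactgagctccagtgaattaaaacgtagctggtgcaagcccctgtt
Tfam: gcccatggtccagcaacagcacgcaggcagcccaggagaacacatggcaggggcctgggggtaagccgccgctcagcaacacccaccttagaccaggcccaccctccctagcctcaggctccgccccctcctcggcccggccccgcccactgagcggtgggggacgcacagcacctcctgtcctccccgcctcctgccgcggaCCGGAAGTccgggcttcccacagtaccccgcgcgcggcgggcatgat
Tfb1m: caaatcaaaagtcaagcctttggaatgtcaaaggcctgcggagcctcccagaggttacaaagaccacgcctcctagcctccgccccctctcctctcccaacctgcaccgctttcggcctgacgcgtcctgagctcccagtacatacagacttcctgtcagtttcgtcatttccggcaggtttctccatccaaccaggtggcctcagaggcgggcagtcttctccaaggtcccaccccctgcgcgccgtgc
The 3 windows differ in composition. That of Tfam has a GC content of 72% and 19 CG pairs, that of Tfb1m 59.6% and 13, and that of Ppargc1a 48% and 5. A total of 3 motifs was searched on both strands, and no window of a member held more than 1 of them: CCGGAAGT, the ETS core that GABP binds, GCGCATGC, the core of the NRF-1 site, and AAGGTCA, an element that ERR and PPAR receptors bind. CCGGAAGT was found before Tfam, beginning 47 bases before the start, and before Polg, at 38 bases. It is present in 2.88% of 32851 promoter windows of the same length. GCGCATGC, present in 2.26% of the windows, was found among the members before Ppara, and AAGGTCA, in 4.08%, before none of them. Promoter windows of 9 of the 10 members, matched by symbol, were described, and Ppargc1b was left out.

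Levels of different genes were compared per kilobase of exon. In WT placebo mice of the Bin1 cohort, Tfam stood at 9.96 ± 1.24 CPM per kilobase (SD, n = 4), above Ppard with 6.38 ± 0.80 and Polg with 5.18 ± 0.11. Ppargc1a (4.92 ± 0.84) and Gabpa (4.47 ± 0.75) overlapped with Polg and with each other, and Ppargc1b, Tfb2m, Tfb1m and Ppara lay between 2.26 and 3.11 CPM per kilobase, each overlapping its neighbour. Nrf1 had the lowest mean, 1.41 ± 0.10 CPM per kilobase, and overlapped Ppara, whose lowest mouse had 1.19. In WT placebo mice of the Dnm2 cohort Nrf1 again had the lowest mean (1.23 ± 0.11), below Tfb1m without overlap but overlapping Ppara, whose lowest mouse had 0.943. Tfam (10.8 ± 0.71) was above Gabpa (6.83 ± 0.46) without overlap, and Ppargc1a, with 14.3 ± 10.9 CPM per kilobase, overlapped Tfam. The spread between mice differed from gene to gene. The coefficient of variation within groups of 4 was 2.12% to 7.77% for Polg and 5.03% to 11.9% for Nrf1, and it was 18.5% to 89.7% for Ppara and 8.87% to 77.0% for Ppargc1a. Ppargc1a had at least 446 reads in each mouse, whereas the lowest number in a mouse was 16 for Ppara, 91 for Ppargc1b, 109 for Tfb1m and 110 for Tfb2m.

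**Figure D2:**
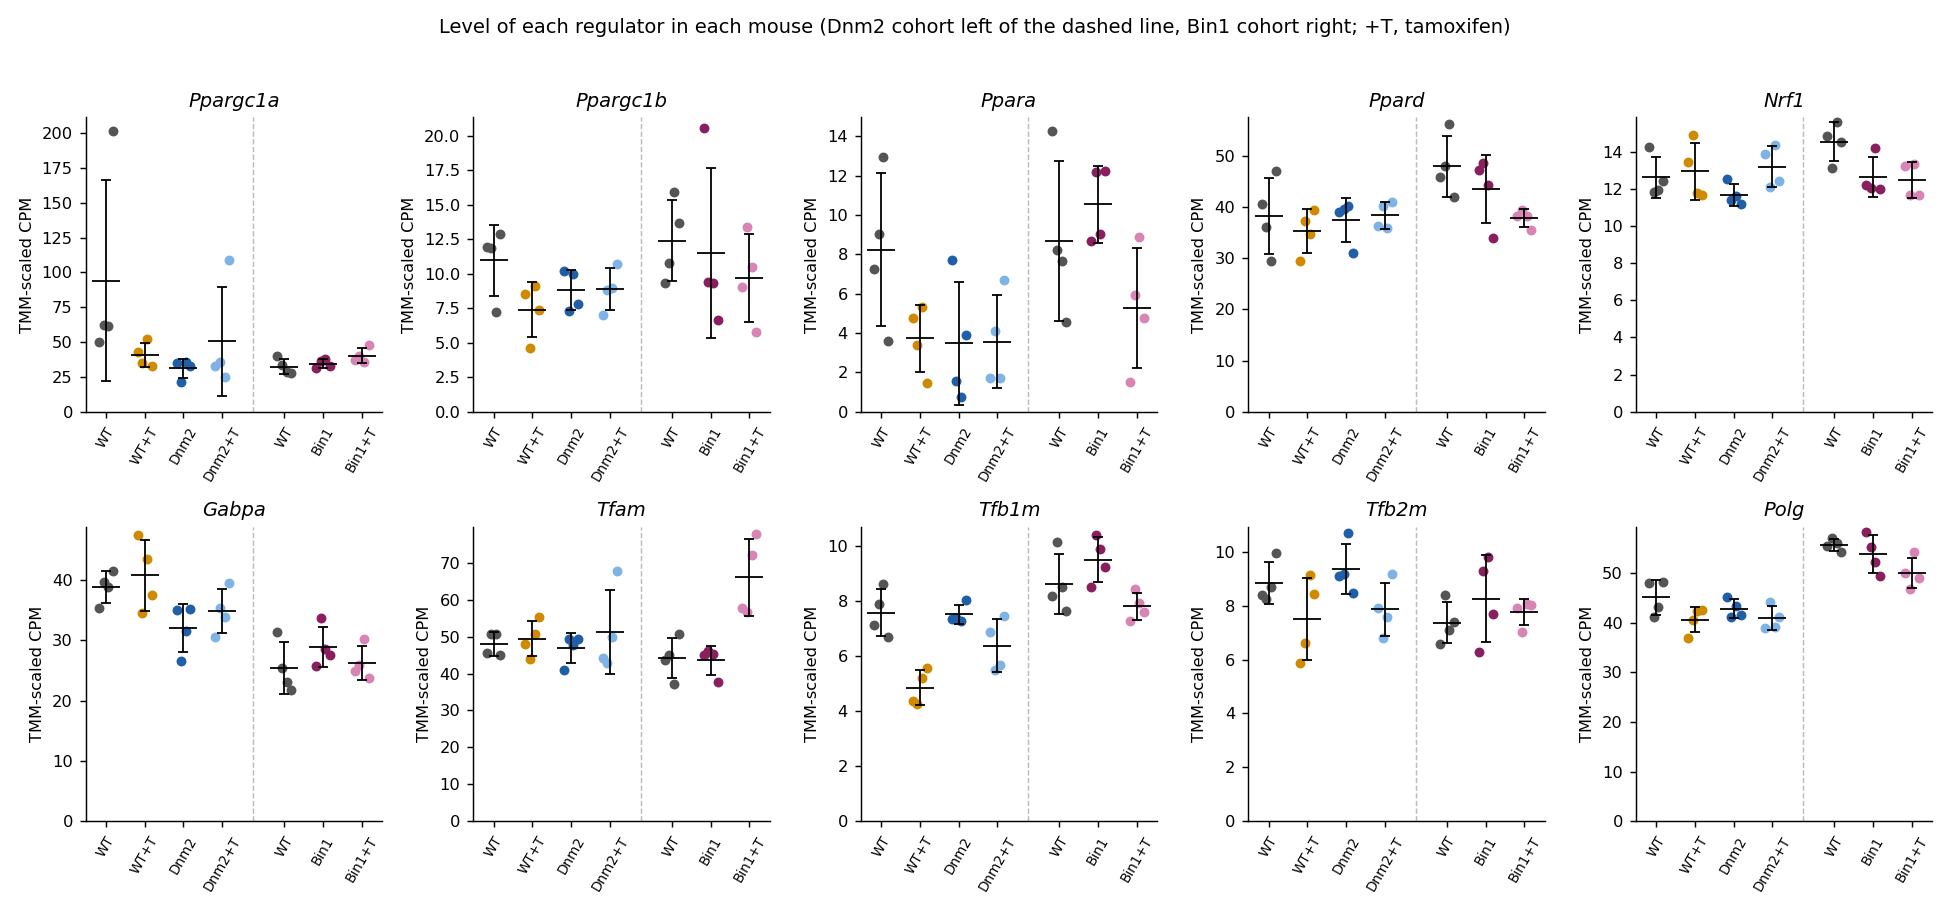
TMM-scaled CPM of the 10 regulators in each of the 28 mice (points), with the mean and SD of each group of 4 (horizontal line and bar). The Dnm2 cohort is left of the dashed line in each panel and the Bin1 cohort right of it. WT placebo mouse 4 and treated Dnm2 S619L/+ mouse 4 stand out for Ppargc1a, and the treated Bin1 mck-/- mice lie above the other mice of their cohort for Tfam.

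Ppargc1a was the regulator that differed between Dnm2 S619L/+ and WT mice. In WT placebo mice 1 to 4 it had 50.4, 62.5, 61.4 and 201.8 CPM, and in Dnm2 S619L/+ placebo mice 34.8, 21.4, 35.7 and 32.7 CPM. All disease mice were therefore below all WT mice, and WT mouse 4 was far above the other WT mice. Ppargc1a fell to 0.332 of its WT level (log2 fold change −1.59, SE 0.48, edgeR quasi-likelihood adjusted p = 0.0279), while 21.9% of all 15439 genes tested changed and 9.81% fell in this comparison. The size rests on WT mouse 4: without it the log2 fold change was −0.90 and did not pass (adjusted p = 0.113). The call was also lost without Dnm2 S619L/+ mouse 2 (adjusted p = 0.0757) or mouse 4 (0.0669), and with no filter on low counts (0.0993).

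The other 9 regulators did not pass the test between Dnm2 S619L/+ and WT placebo mice. Ppargc1b had 7.19 to 12.9 CPM in WT and 7.30 to 10.2 in disease mice, a log2 fold change of −0.32 (SE 0.21). Ppara had 3.62 to 12.97 CPM in WT mice and 7.69, 1.58, 0.724 and 3.88 CPM in the disease mice, which overlapped. Its log2 fold change was −1.18 with an SE of 0.62 (adjusted p = 0.183), and it passed the test only without disease mouse 1 (−1.94, adjusted p = 0.0463). Gabpa had 35.3, 39.7, 38.8 and 41.6 CPM in WT mice and 35.0, 26.6, 31.6 and 35.2 CPM in disease mice. Every disease mouse was below every WT mouse for Gabpa, with a log2 fold change of −0.27 (SE 0.12, adjusted p = 0.104). Groups without overlap, as for Ppargc1a and Gabpa, occurred for 24.9% of all genes in this comparison. Ppard, Nrf1, Tfam, Tfb1m, Tfb2m and Polg had log2 fold changes between −0.11 and 0.08. The median over the 10 regulators was −0.09, beside 0.02 over all genes tested.

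Genes that work with or downstream of these regulators were lower in Dnm2 S619L/+ than in WT mice more often than higher. These counts are read beside the 9.81% of all genes that fell and the median log2 fold change of 0.02 over all genes. Of 34 partners and upstream regulators, 11 fell and 2 rose (median log2 fold change −0.21). The falls included the nuclear receptor Esrrb (−1.33, SE 0.21, adjusted p = 4.75e-04), the muscle cofactor of PGC-1 Perm1 (−0.95, SE 0.19, adjusted p = 0.00272) and the nuclear receptor corepressor Ncor1 (−0.54, SE 0.12, adjusted p = 0.00409). Prkaa1, the α1 catalytic subunit of AMP-activated kinase, rose from 18.8 ± 1.79 to 38.1 ± 5.81 CPM (SD, n = 4; adjusted p = 6.62e-05). Among 31 PPAR target genes tested, 12 fell and 1 rose, with a median of −0.28. Lpl, which frees fatty acids from lipoproteins, fell from 796.1 ± 40.4 to 376.5 ± 72.8 CPM, and Etfdh, Acadvl and Acadm, genes of fatty acid oxidation, had log2 fold changes of −0.74, −0.66 and −0.62. Of 30 mitochondrial target genes of NRF-1, GABP and PGC-1, 10 fell and none rose. These 30 are called respiratory chain target genes below, though some, of mitochondrial dynamics among others, lie outside the respiratory chain. The mitofusin gene Mfn1 (−0.71, SE 0.11), the ATP synthase gene Atp5a1 (−0.50), the complex II gene Sdha (−0.56) and the complex I gene Ndufs1 (−0.49) had the smallest p. Without WT mouse 2 the falls numbered 6, 8 and 4 in these 3 lists, and fewer of all genes were called as well.

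Of 27 genes of mtDNA replication, transcription and nucleoids, 4 fell in Dnm2 S619L/+ mice and none rose, where 9.81% of all genes fell. They were Lrpprc, which stabilises mitochondrial mRNA (−0.52, SE 0.11), the mtDNA helicase gene Twnk (−0.38), the protease gene Lonp1 (−0.31) and Suclg1, a subunit of succinyl-CoA ligase (−0.41). Without WT mouse 2, 1 of the 27 fell. Of the 13 protein-coding genes of mtDNA, 8 were counted well enough to be tested, and 7 of these fell, with a median of −0.91. Some of the 13 had 0 reads in whole groups: mt-Nd3 and mt-Co3 in treated Dnm2 S619L/+ mice, and 5 genes in WT mice of the Bin1 cohort. Sums over the 13 genes therefore rest on those that received reads, and why the others had none was not tested. The complex I gene mt-Nd5 (−1.28, SE 0.18) and mt-Cytb (−0.89, SE 0.12) had adjusted p-values of 1.77e-04 and 1.97e-04. The 13 genes together had 212634, 280618, 311109 and 249880 CPM in WT mice 1 to 4 and 124223, 140479, 167414 and 131383 CPM in disease mice, with no overlap. Tfam, Tfb2m and Polrmt do the transcribing of mtDNA; Tfam and Tfb2m did not pass, and Polrmt, the mitochondrial RNA polymerase, had 25.4 to 28.9 CPM in WT and 23.4 to 28.2 CPM in disease mice. Other cell types moved in the same comparison: 5 of 6 endothelial markers fell, with summed levels of 370.6 to 713.1 CPM in WT and 172.5 to 456.8 CPM in disease mice, and 4 of 8 macrophage and leukocyte markers rose, from 56.3 to 85.4 CPM in WT to 74.8 to 329.6 CPM in disease mice. WT mouse 4, the one with the highest Ppargc1a, also had the highest endothelial sum, and its adipocyte markers summed to 104.4 CPM against 12.0 to 28.8 CPM in the other WT mice. Their part in these results was not tested. Of 11 slow and oxidative fiber genes, 6 rose and 2 fell. Tnni1, a slow troponin gene, had a log2 fold change of 3.31 (SE 0.67) and Myh2, the myosin of oxidative fast fibers, one of −1.80 (SE 0.32). The summed level of the 11 was nonetheless 6492 to 9426 CPM in WT and 3690 to 6664 CPM in disease mice.

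**Figure D3:**
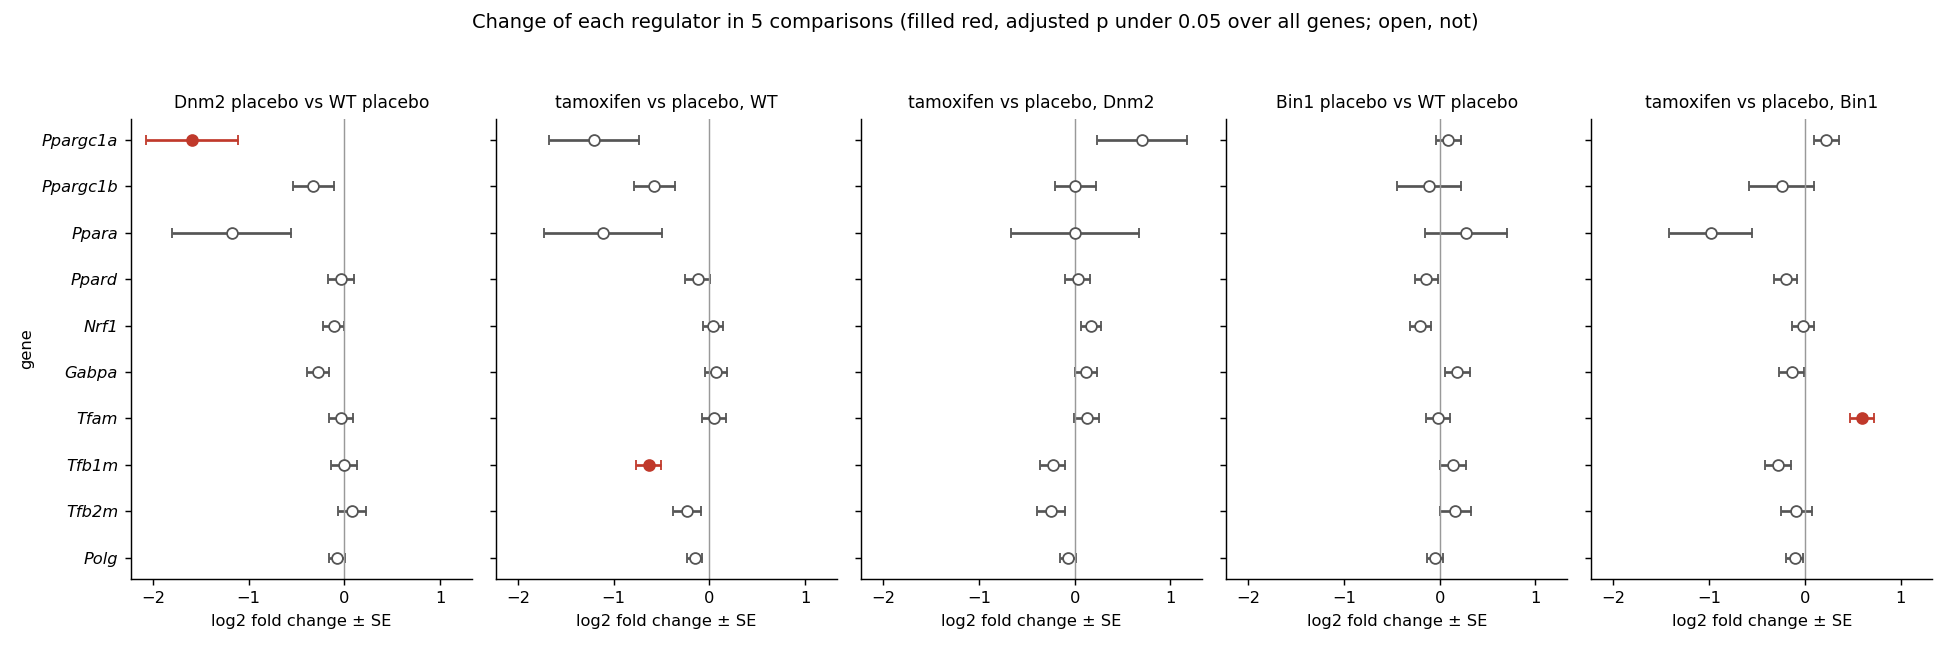
Log2 fold change with its standard error for the 10 regulators in 5 comparisons of 4 mice against 4. Filled points passed the test over all genes at an adjusted p under 0.05, and open points did not. Ppargc1a passed in Dnm2 S619L/+ mice, Tfb1m under tamoxifen in WT mice and Tfam under tamoxifen in Bin1 mck-/- mice.

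Under tamoxifen, WT mice had less Tfb1m, the methyltransferase that modifies the small mitochondrial rRNA. Its level was 7.15, 7.89, 8.62 and 6.70 CPM in placebo mice and 4.36, 4.26, 5.23 and 5.56 CPM in tamoxifen mice. Every treated mouse was below every placebo mouse. Tfb1m fell to 0.643 of the placebo level (log2 fold change −0.64 with SE 0.13, adjusted p = 0.00313 by edgeR), and it passed in all 23 alternative fits, with log2 fold changes from −0.70 to −0.57. In this comparison 27.7% of all genes changed and 11.9% fell, and for 31.4% the groups did not overlap. Beside this fall stand the bone markers, of which 11 of 13 tested rose (median log2 fold change 4.48), the osteoclast markers, with 7 of 7 higher (5.75), and 6 of 8 macrophage and leukocyte markers higher (1.53). Fast fiber genes together had 173390 to 207221 CPM in placebo mice and 134746 to 162136 CPM in treated mice, and 1 of the 12, Tnnc2, passed the test. The part of these other cell types in the level of Tfb1m was not tested.

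Both PGC-1 coactivators had lower estimates in tamoxifen-treated WT mice without passing the test. Ppargc1a had 43.2, 34.8, 52.3 and 32.7 CPM in these mice, and treated mouse 3 overlapped WT placebo mouse 1 (50.4 CPM). The log2 fold change was −1.21 (SE 0.47, adjusted p = 0.0691). DESeq2 called it (adjusted p = 0.0291), and without WT placebo mouse 4 it was −0.51 (adjusted p = 0.348). Ppargc1b had 8.53, 4.59, 9.13 and 7.39 CPM against 12.0, 11.9, 7.19 and 12.9 CPM under placebo, a log2 fold change of −0.58 (SE 0.21, adjusted p = 0.0560). It passed by DESeq2 (adjusted p = 0.0359) and with RLE scaling (0.0497). Ppara had 4.75, 3.39, 5.32 and 1.48 CPM, overlapping with placebo mice, and its log2 fold change of −1.11 had an SE of 0.62. The remaining 6 regulators had log2 fold changes between −0.24 (Tfb2m) and 0.07 (Gabpa).

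In treated WT mice 11.9% of all genes fell, and each list around the regulators is read beside that share. The 12 fast fiber genes had a median log2 fold change of −0.42 there, with all 12 estimates below 0 and 1 called lower. The 11 slow and oxidative fiber genes summed to 4738 to 6254 CPM in treated and 6492 to 9426 CPM in placebo WT mice. Of these 11 genes, 1 was called higher and 1 lower. The part of both fiber lists in the counts below was not tested. Of the 30 respiratory chain target genes, 24 fell and none rose (median −0.48), and 16 fell without WT mouse 2. The complex I gene Ndufs8 went from 173.6 ± 4.64 to 111.8 ± 11.1 CPM (SD, n = 4, edgeR adjusted p = 9.20e-04), and the complex II genes Sdhb and Sdhc had log2 fold changes of −0.66 and −0.49. Of 31 PPAR target genes, 17 fell and 4 rose (median −0.53), with Acadvl, Lpl, Etfdh and Acadl, all of fat uptake and oxidation, at −0.69, −1.06, −0.63 and −0.77. Of the mtDNA machinery, 11 of 27 genes fell and none rose, among them the termination factor Mterf2 (−0.73, SE 0.13), the elongation factor Tefm (−0.53) and Lrpprc (−0.53). Of the partners, 9 of 34 fell and none rose, led by Esrrb (−1.11, SE 0.21), the deacetylase Sirt3 (−0.50), Perm1 (−0.90) and Esrra, the receptor ERRα (−0.43). Of 8 mtDNA genes 6 fell, and the 13 together had 159177 to 173630 CPM in the 4 treated mice, below all WT placebo mice. This comparison and that of Dnm2 S619L/+ with WT mice share the 4 WT placebo mice, so their values are not independent.

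**Figure D4:**
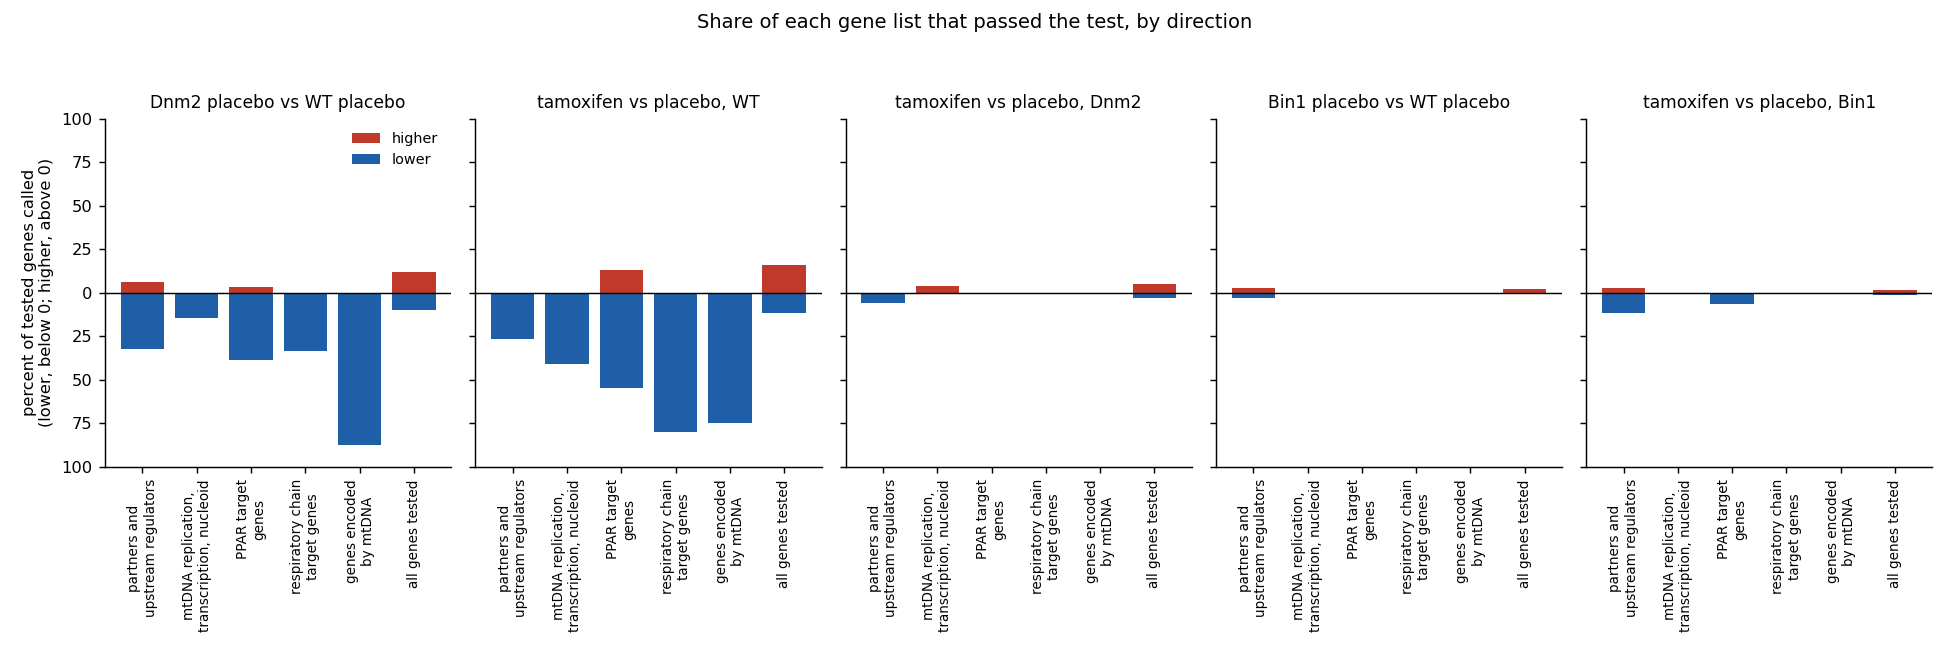
Percent of the tested genes of 5 lists, and of all genes tested, that passed the test at an adjusted p under 0.05, drawn upward for higher and downward for lower expression, in 5 comparisons of 4 mice against 4. In the Dnm2 cohort the lists held mostly lower genes in disease mice and in treated WT mice. In the Bin1 cohort the called genes were partners and 2 PPAR targets.

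In Dnm2 S619L/+ mice, tamoxifen changed none of the 10 regulators by the edgeR test (8.27% of all genes changed), and DESeq2 called none either. None had an unadjusted p under 0.05, against 3927 of all 15439 genes tested. The groups overlapped for all 10, whereas they did not overlap for 10.4% of all genes. Ppargc1a had 33.1, 36.1, 24.8 and 108.8 CPM in the treated mice, so that mice 1 and 3 lay within the range of the placebo disease mice, mouse 2 just above it and mouse 4 far above it. Its log2 fold change was 0.70 (SE 0.47, adjusted p = 0.375) and went to 0.01 without mouse 4. Mouse 4 was also the treated disease mouse with 548.4 CPM of bone and cartilage markers, against at least 3419 CPM in the other 3, and with 24.6 CPM of osteoclast markers against at least 249.98 CPM. Tfam was highest in the same mouse, at 67.6 CPM against 42.9 to 49.8 CPM in the other treated mice, and the change over all 4 was 0.13 (SE 0.13). Tfb1m had 6.90, 5.50, 5.70 and 7.47 CPM, against 7.29 to 8.03 under placebo, a log2 fold change of −0.23 (SE 0.13, adjusted p = 0.297).

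Whether tamoxifen acted differently in WT and in Dnm2 S619L/+ mice was tested as an interaction, which passed for 0.259% of all genes and for none of the regulators by edgeR or DESeq2. Unadjusted p was under 0.05 for 2 of the 10 regulators and for 2089 of all 15439 genes tested. The largest difference was that of Ppargc1a, 1.91 on the log2 scale (SE 0.67, edgeR adjusted p = 0.253), and it was 1.21 without WT mouse 4 and 1.22 without treated disease mouse 4. Tfb1m had a difference of 0.41 (SE 0.19, adjusted p = 0.365). Among PPAR targets 2 passed: Lpl (1.11, SE 0.21) and Etfdh (0.70, SE 0.13), both with adjusted p = 0.0470. Both were lower in treated than in placebo WT mice. Among the 34 partners, Prkaa1 fell under tamoxifen in disease mice, from 38.1 ± 5.81 to 24.2 ± 1.77 CPM (SD, n = 4, edgeR adjusted p = 0.00581), as did Prkag3, another subunit of AMP-activated kinase (−0.96, SE 0.24). Twnk rose from 28.5 ± 1.19 to 40.8 ± 5.68 CPM (edgeR adjusted p = 0.00792). Prkaa1 and Twnk had moved the other way in disease against WT mice. That comparison shares the 4 placebo disease mice with this one, so their values are not independent. No PPAR target gene, respiratory chain target gene or mtDNA gene on the lists passed in treated against placebo disease mice. The summed mtDNA transcripts of treated disease mice, 127103 to 151519 CPM, lay within the range of placebo disease mice.

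Set against WT placebo mice, treated Dnm2 S619L/+ mice had no regulator that passed the test, where 28.9% of all genes changed and 13.1% fell. No member had an unadjusted p under 0.05, against 6297 of all 15439 genes tested. Ppargc1a had a log2 fold change of −0.89 (SE 0.47, adjusted p = 0.167), and of −1.59 without treated mouse 4 (adjusted p = 0.00932). The lists around them were lower. Of the respiratory chain target genes 18 of 30 fell, of the PPAR targets 18 of 31 and of the mtDNA machinery 11 of 27. So did 9 of 34 partners and 7 of 8 mtDNA genes, and 2 genes rose, a PPAR target and a partner. Without WT mouse 2, 6 partners and 6 genes of the machinery fell, and without treated mouse 1, 12 PPAR targets. Mfn1 (−0.75, SE 0.11), Acadvl (−0.72, SE 0.09) and mt-Cytb (−0.93, SE 0.12) are examples. Of the 12 fast fiber genes 6 fell and of the 13 bone and cartilage genes 11 rose in the same mice, and the part of either in these counts was not tested.

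Within the Bin1 cohort, none of the 10 regulators differed between Bin1 mck-/- and WT placebo mice by edgeR or DESeq2. None had an unadjusted p under 0.05, against 2995 of all genes tested. In this comparison 2.61% of all 14841 genes tested changed. Groups of mice overlapped for all 10, against 16.5% of all genes with no overlap. Ppargc1a had 39.9, 33.3, 28.6 and 27.8 CPM in WT mice 5 to 8 and 31.1, 36.2, 37.9 and 32.9 CPM in Bin1 mck-/- placebo mice. These values interleave, and the log2 fold change was 0.09 with an interval of 2 SE from −0.17 to 0.35. Ppargc1b ran from 9.34 to 15.9 CPM in WT and from 6.66 to 20.5 CPM in Bin1 mck-/- mice (−0.11, SE 0.34). The estimates of all 10 lay between −0.20 (Nrf1) and 0.28 (Ppara). Of the 5 lists of partners, machinery and targets, that of the partners held the called genes: Prkaa1 rose from 15.4 ± 1.81 to 26.4 ± 3.12 CPM (SD, n = 4, edgeR adjusted p = 0.0175) and Rxra, the partner receptor of the PPARs, fell from 188.5 ± 24.0 to 121.7 ± 22.8 CPM (edgeR adjusted p = 0.0486). The summed mtDNA transcripts were 76870 to 99533 CPM in WT and 84863 to 107302 CPM in Bin1 mck-/- mice. Adipocyte markers were higher in the latter, 30.0 to 98.4 CPM against 3.68 to 6.99 CPM, with 3 of 6 tested passing, as were 6 of 8 macrophage and leukocyte markers.

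Tamoxifen in Bin1 mck-/- mice went with more Tfam, the factor that packages mtDNA and starts its transcription. Tfam had 45.0, 46.1, 45.4 and 37.8 CPM in placebo mice and 57.7, 56.7, 72.0 and 77.7 CPM in treated mice. All treated mice were above all placebo mice, and these 2 groups did not overlap for 9.8% of all genes. The treated mice were also above the 4 WT mice, at 43.8, 45.1, 37.3 and 50.7 CPM. The share of all genes without overlap was not determined for treated against WT mice. Tfam rose 1.51-fold (log2 fold change 0.60, SE 0.13, edgeR adjusted p = 0.0207), where 3.13% of all genes changed. Against WT placebo mice the treated mice were 1.49-fold higher (0.58 on the log2 scale, SE 0.13, adjusted p = 0.0448), where 0.849% of all genes changed. Neither call held in every fit. When only the compared groups were fitted, the adjusted p was 0.0610 and 0.0751. Leaving out single mice gave log2 fold changes of 0.51 to 0.67 with adjusted p of 0.0101 to 0.0685 against placebo, passing in 7 of 12, and 0.49 to 0.65 with 0.0341 to 0.153 against WT, passing in 3 of 12. In treated against WT mice, Perm1 was the called partner (−0.72, SE 0.15, adjusted p = 0.0362), and Ppard had 38.2, 39.5, 38.3 and 35.4 CPM against 45.8, 47.9, 56.2 and 42.0 CPM, without passing (−0.34, SE 0.12, adjusted p = 0.208). Treated mouse 2, the one with 3055 CPM of bone and cartilage markers, had the lowest Tfam of the treated mice, 56.7 CPM.

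The other 9 regulators did not pass under tamoxifen in Bin1 mck-/- mice. Tfb1m had 8.52, 10.4, 9.91 and 9.24 CPM under placebo and 7.28, 8.43, 7.95 and 7.60 CPM under tamoxifen. These groups did not overlap, as for 9.8% of all genes, and the log2 fold change was −0.28 (SE 0.14, adjusted p = 0.252). Ppara had 8.70, 12.2, 9.02 and 12.3 CPM against 1.53, 5.95, 8.89 and 4.79 CPM, where treated mouse 3 reached the placebo range. Its log2 fold change was −0.98 (SE 0.43, adjusted p = 0.228). Ppargc1a had 37.4, 39.8, 35.7 and 48.1 CPM in treated mice, overlapping with placebo (0.22, SE 0.13, adjusted p = 0.347). Of the 34 partners, 4 fell and 1 rose, and 1.61% of all genes fell. Esrrg, the receptor ERRγ, fell from 31.5 ± 4.65 to 16.2 ± 0.996 CPM (SD, n = 4, edgeR adjusted p = 0.00683), Esrrb had a log2 fold change of −1.32 (SE 0.27) and Prkaa1 one of −0.65 (SE 0.15). Nrip1, a corepressor of nuclear receptors, rose from 15.6 ± 5.54 to 33.7 ± 6.54 CPM (edgeR adjusted p = 0.0166). Of the PPAR targets 2 fell, Lpl (−0.79, SE 0.17) and Cpt2, of mitochondrial fatty acid import (−0.51, SE 0.11). None of 27 genes of the mtDNA machinery, 30 respiratory chain target genes and 7 mtDNA genes tested passed. Summed mtDNA transcripts were at 86134 to 111415 CPM. Beside Tfam, the 12 fast fiber genes had a median log2 fold change of 0.49, with 1 estimate below 0 and 2 genes called higher. These were Pvalb and Actn3 (1.33, SE 0.28 and 1.05, SE 0.24), both of which had fallen in Bin1 mck-/- against WT mice. Both comparisons share the 4 Bin1 mck-/- placebo mice, so their values are not independent. The 11 slow and oxidative fiber genes summed to 10012 to 10774 CPM under placebo and 6074 to 8997 CPM under tamoxifen. Of their estimates 6 were below 0, and none was called. Of the Schwann cell genes, 3 of 5 fell. Adipocyte markers summed to 30.0 to 98.4 CPM under placebo and 4.31 to 24.8 CPM under tamoxifen, without overlap, and 1 of 6, Plin1, fell (−3.32, SE 0.69). Macrophage and leukocyte markers summed to 126.1 to 252.8 CPM and 48.0 to 155.4 CPM, with 8 of 8 estimates below 0 and none called. The part of these lists in the level of Tfam was not tested.

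The disease and tamoxifen effects of both models were set against each other in 1 fit of all 28 mice, chosen after the counts were seen. No regulator passed by edgeR, where the disease effects differed for 0.312% of all genes and the tamoxifen effects in disease mice for 1.71%. For the disease effect, Ppargc1a was 1.68 higher on the log2 scale in the Bin1 than in the Dnm2 model (SE 0.55, adjusted p = 0.178) and Gabpa 0.46 higher (SE 0.18, adjusted p = 0.235). For the tamoxifen effect, Tfam was 0.44 higher in the Bin1 model (SE 0.19, adjusted p = 0.145). Ppargc1a and Gabpa had an unadjusted p under 0.05 for the disease effect and Tfam for the tamoxifen effect. Of all 16036 genes tested, 2166 did so for the disease effect and 3856 for the tamoxifen effect. The fall of Ppargc1a in the Dnm2 model and the rise of Tfam in treated Bin1 mice were thus not shown to be particular to 1 model.

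Over these 5 comparisons within cohorts, the genes with fold changes most like those of the 3 called members were looked up among 14572 genes tested in both cohorts, by root mean square difference of the log2 fold changes. Nearest to Ppargc1a were Gm11407 (0.30), Btnl9 (0.31) and BC048679 (0.33). Nearest to Tfam were 9230116N13Rik (0.05), Mir17hg (0.05) and Lrif1 (0.06), and to Tfb1m Fam185a (0.04), Thnsl1 (0.05) and Inca1 (0.05). Btnl9, for example, had log2 fold changes of −1.57 in Dnm2 S619L/+ and −0.87 in treated WT mice beside −1.59 and −1.21 for Ppargc1a, and −0.12 beside 0.09 in Bin1 mck-/- mice.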

How the data were processed

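Gene expression in TA muscle of 28 mice was analysed, with groups from the sample labels. The authors deposited raw counts for each Ensembl gene, 1 table per cohort, from strand-specific libraries of polyadenylated RNA. The submitters' processing notes name bcl2fastq 2.20.0.422, cutadapt 1.10, Bowtie 1.2.2, STAR 2.5.3, HTSeq 0.6.1p1 and the build mm39, without their roles. The table of the Bin1 cohort has 4 lines that name no gene, holding 22.0% to 30.8% of counts per mouse, which were left out. Names and exon lengths came from GENCODE M21, of the older build GRCm38, which held 52083 identifiers of each table. No coordinates of the count tables were used.

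Each cohort was fitted by itself, all groups together, with edgeR 4.0.16 in R 4.3.3: TMM scaling, filterByExpr, robust quasi-likelihood test, prior count 2, Benjamini-Hochberg adjusted p under 0.05 over all genes. The SE is the log2 fold change divided by the root of its F statistic. On simulated counts with 200 of 15439 genes changed, the disease comparison of the Dnm2 cohort recovered 49% of 2-fold and 85% of 4-fold changes, with 3.60% unchanged genes among those called, and that of the Bin1 cohort, over 14841 genes, 51%, 82% and 2.92%. The real counts gave 3382 and 388 called genes in these comparisons, so the rates describe the simulated setting only. Mice of 1 group were compared for identical libraries, and the chi-square of their counts per gene was never under 15.6. The labels call the mice separate replicates. Alternatives were DESeq2 1.42.0, RLE scaling, no filter, a filter of over 10 reads in 90% of mice, library sizes without mtDNA genes, fits of the compared groups alone, a block for replicate number, and leaving out each mouse. Named are all 10 members, up to 4 called genes with the smallest p of each list and comparison, marker genes and the 3 nearest genes by fold change. Polrmt, Flcn, Fnip1, Bin1 and Ckm are given by mouse, of which Flcn and Fnip1 were chosen after their values were seen. Members and lists were chosen with earlier results of these data known.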

Additional observations from a re-analysis of the deposited data

Results flagged for a closer look

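Within 70 groups of 4 mice (10 genes in 7 groups), 7 had a mouse far from the other 3 by Dixon's test at 95%, where chance gives 5% or 3.5 groups. For Ppargc1a these were WT placebo mouse 4 of the Dnm2 cohort, with 201.8 CPM against 50.4 to 62.5 CPM, and treated Dnm2 S619L/+ mouse 4, with 108.8 CPM against 24.8 to 36.1 CPM. Dnm2 S619L/+ placebo mouse 4 was low for Ppard (31.1 CPM) and high for Tfb1m (8.03 CPM). In Bin1 mck-/- placebo mice, mouse 3 was high for Nrf1 (14.2 CPM) and mouse 4 low for Tfam (37.8 CPM). Treated Bin1 mck-/- mouse 2 was low for Tfb2m (7.04 CPM).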

How the results depend on the processing

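Of 1690 values of single members under the alternatives, 1659 kept their call or lack of a call, 21 lost a call and 10 gained one. None that was called in the main fit or the alternative reversed its direction. Values called in neither fit could change direction and were counted as kept. Ppara under tamoxifen in Dnm2 S619L/+ mice, for example, had log2 fold changes from −0.50 to 0.76. The numbers of called members moved as follows. In Dnm2 S619L/+ against WT mice there were 0 in place of 1 without a filter; for tamoxifen in WT, 3 by DESeq2 and 2 with RLE scaling in place of 1; for tamoxifen in Bin1 mck-/- mice, 0 in place of 1 with only the groups compared; for treated Bin1 mck-/- against WT mice, 0 in place of 1 with only the groups compared. Numbers of all genes called moved more. For tamoxifen in Dnm2 S619L/+ mice, 1277 became 814 without a filter and 30 with only the groups compared. For the interaction, 40 became 322 by DESeq2, 20 with RLE scaling and 16 with the filter of over 10 reads in 90% of mice. In the Bin1 cohort, disease against WT went from 388 to 1149 by DESeq2 and 1458 with only the groups compared, tamoxifen from 464 to 1166 and 122, and treated mice against WT from 126 to 521 by DESeq2 and 210 without a filter. The cause was not tested. With the replicate block, tamoxifen in Dnm2 S619L/+ mice had 843 called genes, the interaction 10, and tamoxifen in Bin1 mck-/- mice 152 genes and 0 members (Tfam 0.59, adjusted p = 0.113), and it changed no other call of a member. The numbers do not pair the mice: deviations of equal numbers correlated at −0.325 to 0.335 in the Dnm2 cohort (24 pairs) and −0.175 to 0.149 in the Bin1 cohort (4 pairs). The WT mice of the Bin1 cohort share no number with the others. Leaving out 1 mouse at a time, disease against WT in the Dnm2 cohort had 2034 genes (without WT mouse 2) to 3953 (without treated disease mouse 4) and 0 to 2 members, and tamoxifen in WT 2769 (without WT tamoxifen mouse 2) to 4825 genes and 1 to 3 members. Tamoxifen in Dnm2 S619L/+ mice had 368 (without treated mouse 3) to 2562 genes (without treated mouse 4), the interaction 1 (without WT tamoxifen mouse 1) to 293 (without Dnm2 S619L/+ placebo mouse 3), and treated disease against WT 2955 (without treated mouse 3) to 5497 (without treated mouse 4) and 0 to 1 members. In the Bin1 cohort, disease against WT had 18 (without WT mouse 8) to 759 genes (without treated mouse 2), tamoxifen 160 (without treated mouse 3) to 1253 (without treated mouse 2) and 0 to 1 members, and treated against WT 42 (without WT mouse 5) to 266 genes (without treated mouse 3) and 0 to 1 members. Depth limits Ppara, with as few as 16 reads in a mouse.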

Other observations

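Both mice with high Ppargc1a also had high Flcn, the folliculin gene, a member of the list of upstream regulators that was singled out after its values were seen. Flcn had 104.0 CPM in WT placebo mouse 4 of the Dnm2 cohort, against 49.5 to 54.4 CPM in the other 3, and 102.4 CPM in treated Dnm2 S619L/+ mouse 4, against 52.7 to 59.7 CPM. Among the other 14 mice of either of these groups and of the WT tamoxifen and Dnm2 S619L/+ placebo groups, Flcn lay between 42.7 and 63.8 CPM. Fnip1, which encodes a binding partner of folliculin, had 93.7 CPM in that WT mouse, against 44.4 to 57.8 CPM in the other 3, and 56.8 CPM in the treated disease mouse, against 32.6 to 42.8 CPM. In the Bin1 cohort, where Ppargc1a stayed between 27.8 and 48.1 CPM, treated mouse 4 had the highest level of both genes, 48.1 CPM of Ppargc1a and 100.5 CPM of Flcn, but not of Fnip1, with 26.2 CPM against 41.7 CPM in treated mouse 2. WT tamoxifen mouse 4 had the highest Flcn of its group, 63.8 CPM, with the lowest Ppargc1a, 32.7 CPM.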
